A study of Homo sapiens with 6 samples.

Results

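The 4 mature arms of miR-31 and miR-335, hsa-miR-31-5p, hsa-miR-31-3p, hsa-miR-335-5p and hsa-miR-335-3p, were picked by name from a table of 1582 miRNAs, because both miRNAs have been reported as lost in metastatic MDA-MB-231 cells. All 4 arms had a row of their own. They were measured by small RNA sequencing in MDA-MB-231, an established TNBC cell line of mesenchymal appearance that serves as a standard model of breast cancer metastasis. The comparison was between 3 libraries of non-transfected cells, called control, and 3 libraries of cells given RARαS77A, a retinoic acid receptor α whose serine 77 is replaced by alanine and cannot be phosphorylated. Both groups were the same parental line, and neither is described as a metastatic subline. The series text speaks of a lentiviral RARαS77A and the sample labels of transfection, and no vector-only library was analysed here, so delivery of the construct and the mutant receptor cannot be told apart. RARα itself is not measured by small RNA sequencing, so these data hold no check of the construct. No source used here says that the 3 libraries of a group came from separate cultures, and p-values measure the spread between these libraries, which may be technical.

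A miRNA is cut from a hairpin precursor with an arm on either side, 5p and 3p, and the arm that is loaded into an Argonaute protein represses mRNAs that pair with its seed, bases 2 to 8. miR-31 is known to restrain several steps of breast cancer metastasis, with integrin α5, radixin and RhoA among its targets. miR-335 is known for suppressing invasion and metastatic colonisation through SOX4 and tenascin C, a function ascribed to its 5p arm, and was described together with miR-126 and miR-206 as a set of miRNAs lost in metastatic derivatives of MDA-MB-231.

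The mature sequences below, written 5′ to 3′ with the seed in capitals, show what each counted arm is. They are from RefSeq on GRCh38.p14, where 3 of the 4 arms had an entry.
hsa-miR-31-5p: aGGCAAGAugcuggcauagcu
hsa-miR-335-5p: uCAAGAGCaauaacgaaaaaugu
hsa-miR-335-3p: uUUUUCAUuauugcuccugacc

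No seed was shared among these 3 arms, and no other mature miRNA of the RefSeq table shared a seed with any of them. The seeds of miR-31-5p and miR-335-5p held a common run, CAAGA, of 5 bases, which starts at base 4 in miR-31-5p and at base 2 in miR-335-5p, so the 7-base seeds as a whole differ. miR-335-5p was rich in A and U, at 69.6% of its bases, against 63.6% in miR-335-3p and 47.6% in miR-31-5p. The precursors are given next, since the position of the arms on the hairpin decides which reads are counted as 5p and which as 3p. The mature arms with a RefSeq entry are in capitals, and miR-31-3p, which had none, is left unmarked in lower case.
MIR31: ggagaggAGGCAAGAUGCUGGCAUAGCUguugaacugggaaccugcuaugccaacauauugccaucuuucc
MIR335: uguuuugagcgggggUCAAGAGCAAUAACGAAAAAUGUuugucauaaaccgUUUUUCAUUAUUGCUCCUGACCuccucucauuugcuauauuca

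MIR31 lies at chr9:21512115-21512185 on the minus strand of GRCh38, and miR-31-5p takes bases 8 to 28 of its 71-base hairpin. By GENCODE 29 the hairpin is intronic, within the long non-coding gene MIR31HG on the same strand, and overlaps none of its exons. MIR335 lies at chr7:130496111-130496204 on the plus strand, with the 5p arm at bases 16 to 38 and the 3p arm at bases 52 to 73 of 94. It is intronic in MEST, an imprinted protein-coding gene on the same strand, and it also overlaps an exon of AC007938.2, an antisense gene on the minus strand. The strand setting of the counting was not stated in the sources used here.

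The libraries held between 9019266 and 11338580 counts. A count of 0 therefore allows up to 3 counts, or between 0.265 and 0.333 TPM, by counting error only. Levels expected of the line were looked at, which cannot identify it. The 4 miRNAs listed as abundant in MDA-MB-231 (miR-21-5p, miR-100-5p, miR-221-3p and miR-222-3p) summed to between 607184 and 706284 deposited TPM. The 4 epithelial miRNAs expected at a low level summed to between 30.6 and 97.0. Some libraries stood apart. Control replicate 1 held 898 counts of the muscle miRNA miR-1-3p against 28 to 49 in the other 5, and 605 counts of the skin miRNA miR-203a-3p against 10 to 78. The 8 miRNAs typical of pluripotent stem cells (the miR-302 family, miR-367, miR-371a and miR-372) summed to 0.185 and 0.0882 deposited TPM in control replicates 1 and 2 but to 536 in control replicate 3, where all 8 were detected, and to between 360 and 375 in the RARαS77A libraries. Over the 506 miRNAs that passed the filter, log2 TMM-scaled CPM of control replicate 3 had a Pearson's r of 0.968 and 0.967 with control replicates 1 and 2 and of 0.967, 0.974 and 0.9749 with RARαS77A replicates 1 to 3. The muscle list summed to 94.9 deposited TPM in control replicate 1 and to between 6.19 and 8.20 in the others. The liver list ranged over 8.91 to 53.7 in control and 34.7 to 52.6 in RARαS77A libraries, and the blood list over 33.6 to 45.4 and 23.7 to 32.7. The endocrine list, nearly all miR-7-5p, ranged over 4960 to 5967 and 8041 to 8983. Control replicate 2 held 870 counts of miR-375-3p against 19 to 54 in the others, and 99 of the liver miRNA miR-122-5p against 355 to 527. The part of these signals in the results below was not tested. In such bulk libraries, fewer cells that express a miRNA and less of it per cell cannot be told apart.

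The 4 arms differed widely in level and kept one order in all 6 libraries, with miR-335-3p first, then miR-335-5p, miR-31-5p and miR-31-3p. Levels are given as TMM-scaled CPM, that is counts scaled by a library size that is corrected for composition, or as deposited TPM, which here is the CPM of the raw counts with no correction and no length term. A small RNA read spans the whole miRNA, so no length term is needed between arms of 21 to 23 bases, but reads of different miRNAs are not counts of molecules. miR-335-3p ranked between 87 and 99 among all miRNAs of a library, miR-335-5p between 244 and 312, miR-31-5p between 455 and 610, and miR-31-3p between 654 and 1165. On the TMM scale the lowest miR-335-3p value, 208.8 CPM, was far above the highest miR-335-5p value, 10.3 CPM. The lowest miR-335-5p value, 5.001 CPM, was likewise above the highest miR-31-5p value, 1.32 CPM. The arms of miR-31 were close to each other and to the detection floor, and the 95% Wilson intervals of their shares overlapped in every library except RARαS77A replicate 3.

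**Figure D1:**
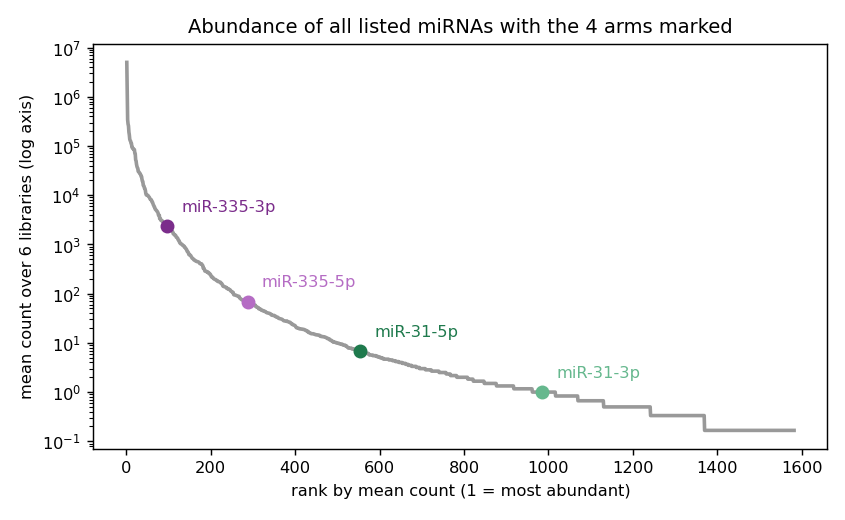
Mean count over the 6 libraries (y, log axis) against rank among all listed miRNAs (x, 1 is the most abundant), with the 4 arms as coloured points on the grey curve of all miRNAs. The miR-335 arms sit in the upper and middle part of the curve and the miR-31 arms in its low tail.

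miR-31-5p was barely detected in MDA-MB-231 cells of either group. Its counts were 7, 7 and 5 in control replicates 1 to 3 and 7, 4 and 11 in RARαS77A replicates 1 to 3. The groups overlapped, with the lowest and the highest count both in RARαS77A libraries. Pooled over each group, 19 of 31162649 control counts were miR-31-5p, or 0.610 TPM with an exact Poisson interval of 0.367 to 0.952. For RARαS77A the sum was 22 of 29975983, or 0.734 TPM with an interval of 0.460 to 1.11. The ratio of RARαS77A to control was 1.20 by total counts, with a 95% interval of 0.622 to 2.35, and 1.80 with TMM, with an interval of 0.928 to 3.51. Both intervals cover counting error only, and both contain 1.

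On the TMM scale miR-31-5p was at 0.498 ± 0.0557 CPM in control and at 0.897 ± 0.424 CPM under RARαS77A (SD, n = 3 each). This difference did not exceed the spread (two-sided exact permutation p = 0.2, where 0.1 is the smallest that 3 against 3 can give). The passenger arm miR-31-3p had counts of 0, 0 and 1 in control and of 2, 3 and 0 in RARαS77A libraries. All 6 values are at or below the floor of 3 counts, so no fold is given, and the exact permutation p was 0.4. Neither arm of miR-31 passed edgeR's filter on low counts (a minimum count of 10). When the filter was dropped and all 1582 miRNAs were tested, miR-31-5p had a log2 fold change of 0.66 with an SE of 0.62 and a 95% interval from -0.56 to 1.88 (edgeR, adjusted p = 0.591), where 17.6% of all miRNAs were called.

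miR-335-3p was the one well-covered arm. Its counts were 2604, 3126 and 2330 in control and 1876, 2320 and 1992 in RARαS77A libraries. By deposited TPM these were 241.0, 275.7 and 258.3 against 193.5, 226.0 and 198.9, so the RARαS77A libraries were all below the control libraries. By TMM-scaled CPM they were 208.8, 212.5 and 212.9 against 238.6, 276.3 and 239.8, so the RARαS77A libraries were all above them. The direction of miR-335-3p was thus set by the scaling. The TMM factors were 1.15 to 1.30 in control and 0.811 to 0.830 in RARαS77A libraries, and the median log2 fold change of the 506 miRNAs tested was 0.06 with TMM, -0.51 with total counts and 0.27 with upper quartile factors.

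With TMM the mean of miR-335-3p was 211.4 ± 2.23 CPM in control and 251.5 ± 21.4 CPM after RARαS77A (SD, n = 3 each). By edgeR the log2 fold change was 0.25 with an SE of 0.10 and a 95% interval from 0.016 to 0.49 (adjusted p = 0.0782). With total counts only, the log2 fold change was -0.33 (edgeR, adjusted p = 0.0492; 42.1% of all tested miRNAs were called lower and 10.1% higher), and with upper quartile factors it was 0.46 (edgeR, adjusted p = 0.0193; 27.9% were called higher and 14.6% lower). Set against the median of all tested miRNAs, the value was 0.19 above with TMM, 0.18 above with total counts and 0.19 above with upper quartile factors. These scalings shift all log2 fold changes by nearly the same amount, so the closeness follows from the measure. With limma on log2 of deposited TPM plus 1 and plus 10, the value was 0.09 and -0.14 from the median. miR-335-3p stood 299th from the lowest of the 506 log2 fold changes with TMM, which is close to the middle.

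miR-335-5p, the arm known as the suppressor, was counted 129, 80 and 72 times in control and 40, 42 and 47 times in RARαS77A libraries. By deposited TPM the control values of 11.9, 7.06 and 7.98 were all above the RARαS77A values of 4.13, 4.09 and 4.69. By TMM-scaled CPM they were 10.3, 5.44 and 6.58 against 5.09, 5.001 and 5.66, and the groups overlapped because control replicate 2 lay below RARαS77A replicate 3. Control replicate 1 was the highest library on both scales.

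The TMM-scaled mean of miR-335-5p was 7.45 ± 2.57 CPM in control and 5.25 ± 0.357 CPM in RARαS77A cells (SD, n = 3 each). By edgeR the log2 fold change was -0.50 with an SE of 0.26 and a 95% interval from -1.12 to 0.12 (adjusted p = 0.160). The value lay 0.57 below the median of all tested miRNAs with TMM, and 0.55 and 0.54 below it with total counts and with upper quartile factors. As above, this closeness follows from the measure. With limma on log2 of deposited TPM plus 1 and plus 10, the value was -0.47 and -0.23 from the median. With total counts only, the log2 fold change was -1.06 (edgeR, adjusted p = 0.00850), and without a filter, with TMM, it was -0.69 (edgeR, adjusted p = 0.0449; 10.2% of all miRNAs were called lower). In the fit without a filter the median of all miRNAs was -0.13, and miR-335-5p stood at -0.56 from it, much as in the main fit. Without control replicate 1, the library high in miR-1-3p and miR-203a-3p, the log2 fold change of miR-335-5p was -0.19 with an SE of 0.22 (edgeR, adjusted p = 0.534).

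Of the 2 arms that passed the filter, both of miR-335, 0 were called by edgeR with TMM at an adjusted p under 0.05, against 44.5% of the 506 miRNAs tested (23.3% higher and 21.1% lower). At an unadjusted p under 0.05 edgeR had 1, miR-335-3p. DESeq2 and limma-voom called 0 of the 2 as well. Groups of TMM-scaled CPM that did not overlap, with the RARαS77A libraries above, were found for miR-335-3p and for 31% of all tested miRNAs. On the deposited TPM both arms had all RARαS77A libraries below control, as did 48.8% of the tested miRNAs. The exact permutation p of log2 TMM-scaled CPM was 0.1 for miR-335-3p and 0.2 for miR-335-5p.

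**Figure D2:**
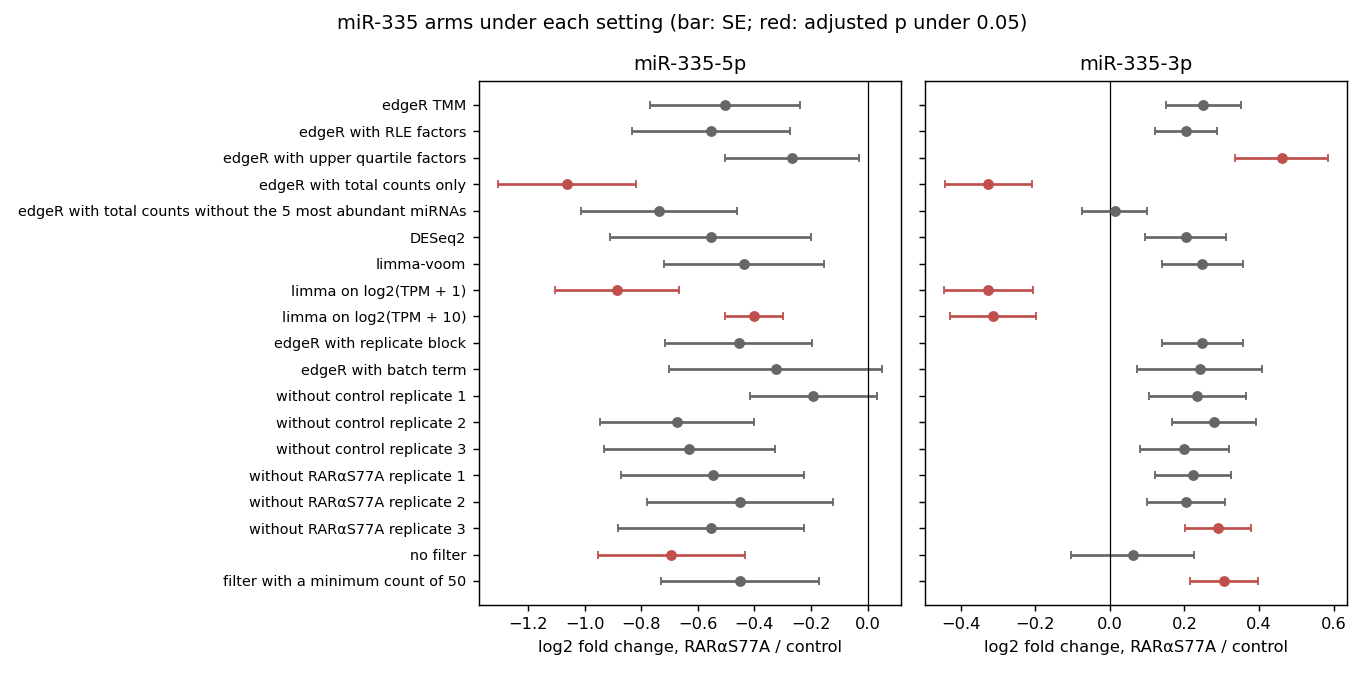
Log2 fold change of RARαS77A over control (x) for miR-335-5p and miR-335-3p under each way of scaling, testing, filtering or leaving out a library (y), with its SE as a bar and red where the adjusted p was under 0.05. miR-335-5p stayed below 0 in all settings, from -1.06 to -0.19, and miR-335-3p changed sign, from -0.33 with total counts to 0.46 with upper quartile factors.

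The share of the arms needs no scaling between libraries, since both arms are read in the same library. In miR-335 the 3p arm was dominant by far: control replicates 1 to 3 held 20.2, 39.1 and 32.4 reads of miR-335-3p for each read of miR-335-5p, and RARαS77A replicates held 46.9, 55.2 and 42.4. The 5p arm made up 4.72%, 2.50% and 3.00% of miR-335 reads in control, with 95% Wilson intervals of 3.99 to 5.58, 2.01 to 3.09 and 2.39 to 3.76. In RARαS77A libraries it made up 2.09%, 1.78% and 2.31%, with intervals of 1.54 to 2.83, 1.32 to 2.39 and 1.74 to 3.05. The RARαS77A shares were all below the control shares, although the intervals of control replicates 2 and 3 overlapped with those of RARαS77A libraries. The mean share was 3.40% ± 1.17 in control and 2.06% ± 0.265 in RARαS77A cells (SD, n = 3 each).

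On the log2 scale the ratio of 5p to 3p reads of miR-335 was -4.87 ± 0.489 in control and -5.57 ± 0.192 after RARαS77A (SD, n = 3 each). The difference of -0.69 had the smallest p the design allows (two-sided exact permutation p = 0.1, adjusted over the ratios of miR-335 and miR-31 0.2). Without control replicate 1 the difference was -0.42. Against control replicate 3 alone, the control library that shares the pluripotency miRNAs with the RARαS77A libraries, it was -0.56.

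A lower share of the rarer arm was seen for many miRNAs. Of 120 miRNAs whose arms both passed the filter, the ratio of the minor to the major arm was lower in RARαS77A libraries in 82 and higher in 38, with a median difference of -0.36 on the log2 scale and quartiles of -1.14 and 0.19. Groups did not overlap in 59.2% of the 120, with the RARαS77A libraries below in 43.3% and above in 15.8%. miR-335 stood 48th from the lowest. In miR-31, 5p was the major arm, and its log2 ratio of 5p to 3p was 3.23 ± 1.17 in control and 2.16 ± 2.14 in RARαS77A cells (SD, n = 3 each), a difference of -1.07 that rests on 6 reads of the 3p arm in all and was within the spread (exact permutation p = 0.6).

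miR-126 and miR-206 were reported as lost along with miR-335. miR-126-3p, known as an endothelial miRNA and a brake on metastasis, was well expressed, with 6654, 8069 and 6177 counts in control and 11815, 10907 and 9577 in RARαS77A libraries. All RARαS77A libraries were above all control libraries. The TMM-scaled mean was 549 ± 15.3 CPM in control and 1318 ± 176 CPM in RARαS77A cells (SD, n = 3 each). miR-126-3p thus rose by 1.26 on the log2 scale with an SE of 0.11 (edgeR, adjusted p = 0.000237), and the value was still 0.69 with total counts only (edgeR, adjusted p = 0.00223). Its rarer arm miR-126-5p did not pass the test, with a log2 fold change of 0.10 (edgeR, adjusted p = 0.679). miR-206 was near the floor, with counts of 0 and 1 in control replicates 2 and 3 and of 1, 0 and 2 in RARαS77A libraries. The exception was 36 in control replicate 1, where the muscle miRNAs miR-1-3p and miR-133a-3p were high as well, but miR-499a-5p was not.

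A list of 16 miRNAs described as suppressors of breast cancer metastasis or invasion, which includes both arms of miR-126 and miR-206, had 14 that passed the filter. The list was written with earlier results of these data known, so its counts are a description only. With TMM 5 rose, miR-126-3p among them, 0 fell and 9 did not pass the test, where 23.3% of all tested miRNAs rose and 21.1% fell, with a median log2 fold change of 0.04 against 0.06 for all tested miRNAs. Besides miR-126-3p they were miR-146b-5p (1.15, edgeR adjusted p = 0.000712), which restrains NF-κB signalling, miR-193b-3p (1.04, adjusted p = 0.00171), which targets urokinase and was named after its value was seen, so that all 5 are given, miR-30a-5p (0.56, adjusted p = 0.00696), which targets SNAI1, and miR-200b-3p (0.49, adjusted p = 0.0241), which targets ZEB1 and ZEB2. At an unadjusted p under 0.05, 1 of the 14 was lower. DESeq2 and limma-voom called 0 lower, where they called 111 and 107 of all tested miRNAs lower. With total counts only, 2 rose and 4 fell, where 10.1% of all tested miRNAs rose and 42.1% fell. On that scale miR-193b-3p was at 0.46 and did not pass (edgeR, adjusted p = 0.0719), and miR-30a-5p and miR-200b-3p changed sign to -0.01 and -0.08. With control replicates 1 and 2 set apart by a term, RARαS77A is compared with control replicate 3 alone. miR-30a-5p and miR-200b-3p were then at 0.46 and 0.40. miR-200b-3p did not pass without control replicate 1 or 2 or without RARαS77A replicate 1 or 2 (edgeR, adjusted p 0.0525 to 0.0754).

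A list of 11 miRNAs described as promoters of metastasis, also written with earlier results known, had 8 that passed the filter. With TMM 3 rose, 1 fell and 4 did not pass the test, against 23.3% of all tested miRNAs higher and 21.1% lower, with a median log2 fold change of 0.38 against 0.06 for all. miR-9-5p, which targets E-cadherin, rose by 1.02 (edgeR, adjusted p = 0.00171). miR-21-5p, which targets PDCD4, rose by 0.65 (edgeR, adjusted p = 0.0482), and miR-182-5p, which targets FOXO factors, by 0.37 (adjusted p = 0.0136). On total counts only, miR-9-5p and miR-21-5p were at 0.43 and 0.08 and did not pass (edgeR, adjusted p = 0.0704 and 0.716). On that scale miR-182-5p changed sign to -0.20. miR-107, which targets Dicer, fell by 1.33 on the log2 scale (edgeR, adjusted p = 0.000334). With total counts only, 0 rose and 3 fell, against 10.1% and 42.1% of all tested miRNAs. With control replicates 1 and 2 set apart, so against control replicate 3 alone, miR-9-5p, miR-21-5p and miR-182-5p were at 1.26, 0.66 and 0.28. miR-21-5p did not pass when any RARαS77A library was left out (edgeR, adjusted p 0.0987 to 0.195).

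Few miRNA genes lie within 1000000 bases of the precursors. Near MIR31 on chromosome 9 there was MIR491, 795927 bases away, whose arms miR-491-5p and miR-491-3p had log2 fold changes of -0.45 and -0.21 that did not pass the test (edgeR, adjusted p = 0.142 and 0.605). With total counts only, miR-491-5p was at -1.02 and passed (edgeR, adjusted p = 0.00766). miR-491-5p had 97, 107 and 56 counts in control and 45, 36 and 40 in RARαS77A libraries, many more than miR-31-5p.

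Near MIR335 on chromosome 7 there were the miR-183 cluster (MIR183, MIR96 and MIR182), between 721123 and 725619 bases away, and the cluster of MIR29A and MIR29B1, 380543 and 381255 bases away, both on the opposite strand. The main arms of the miR-183 cluster rose with TMM, miR-96-5p by 0.65 (edgeR, adjusted p = 0.00172), miR-183-5p by 0.58 (adjusted p = 0.00358) and miR-182-5p as above, and with total counts only they were at 0.08, 0.003 and -0.20. miR-29a-3p, an abundant miRNA that targets collagens, fell by 0.52 on the log2 scale (edgeR, adjusted p = 0.0113), and its values were 128049, 128371 and 95139 counts in control against 45960, 61764 and 50759 in RARαS77A libraries. The rarer arms miR-29b-1-5p and miR-182-3p fell by 1.93 and 1.49 (edgeR, adjusted p = 0.000334 and 0.0266), while miR-29b-3p, miR-29a-5p and miR-183-3p had values of -0.06, 0.11 and 0.08 that did not pass the test. With total counts only, miR-29a-3p was at -1.09 (edgeR, adjusted p = 0.000349), and miR-29b-3p was at -0.63 and passed (edgeR, adjusted p = 0.00716). miR-96-3p was below the filter. With control replicates 1 and 2 set apart by a term in the model, the comparison is with control replicate 3 alone. miR-96-5p, miR-183-5p and miR-182-5p were then at 0.60, 0.49 and 0.28. miR-29b-1-5p, miR-29a-3p and miR-182-3p were at -1.73, -0.43 and -1.46. Without control replicate 2, miR-182-3p did not pass (edgeR, adjusted p = 0.0630).

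The pattern of each miR-335 arm over the 6 libraries was compared with that of every tested miRNA with a mean count of at least 50, 313 in all, by the root mean square difference of log2 TMM-scaled CPM after each miRNA was centred on its mean. The most alike to miR-335-5p were miR-374a-5p (0.143), miR-340-5p (0.179) and miR-582-5p (0.183), while its own partner miR-335-3p was at 0.441. All 3 had their highest value in control replicate 1, which follows from how they were picked, since miR-335-5p was highest there. miR-374a-5p was at 140.2, 100.9 and 103.3 CPM in control and at 72.0, 76.9 and 79.3 CPM in RARαS77A libraries. Of the 3, miR-374a-5p passed the test, with a log2 fold change of -0.59 (edgeR, adjusted p = 0.0201), but not without control replicate 1 (-0.43, adjusted p = 0.0652) or RARαS77A replicate 2 (-0.58, adjusted p = 0.0615). The most alike to miR-335-3p were miR-629-5p (0.0605), miR-28-3p (0.0622) and miR-584-5p (0.0660), with log2 fold changes of 0.31, 0.19 and 0.21 that did not pass the test (edgeR, adjusted p = 0.0783, 0.0747 and 0.142).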

How the data were processed

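Small RNA libraries (NEBNext Multiplex Small RNA kit, Illumina HiSeq) of 3 control and 3 RARαS77A samples were analysed from the table the authors deposited. It holds whole-number read counts per miRNA, not normalized, and deposited TPM, which equals the CPM of the column total (largest difference 4.74e-05). Bowtie is named in the submitters' processing notes; the sources used here give no settings, reference or handling of reads with several matches. Groups came from the sample titles.

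Counts were tested with edgeR 4.0.16 in R 4.3.3 (TMM, filterByExpr with a minimum count of 10, glmQLFit and glmQLFTest), with Benjamini-Hochberg adjustment over the 506 miRNAs tested and a threshold of 0.05. An SE was computed as |log2 fold change| over √F. Arm ratios used 0.5 added to each count. Single values were compared by two-sided exact permutation tests, and Wilson and Poisson intervals came from scipy 1.17.1. Alternatives used DESeq2 1.42.0, limma 3.58.1, other scalings and filters, a replicate block, a term that sets control replicates 1 and 2 apart, and each library left out. That term leaves control replicate 3 as the only control library set against RARαS77A. For single miRNAs only effect sizes are therefore named for it. Its counts of called miRNAs rest on that control library alone, and no conclusion is drawn from them. Scripts were tested on simulated data.

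The arms, the lists and the alternatives were chosen with earlier results of these data known. Named by rule were the 4 arms, miR-126-3p, miR-206, the 2 called miRNAs with the highest and the 2 with the lowest log2 fold change of each list, miRNAs within 1000000 bases, and the 3 most alike to each miR-335 arm. Sequences and positions were taken from RefSeq (GRCh38.p14) and GENCODE 29; 1342 miRNAs of the table matched RefSeq.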

Additional observations from a re-analysis of the deposited data

How the results depend on the processing

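These results are limited by 3 libraries per group, by the low counts of miR-31 and by relative counts, which leave the direction of miR-335-3p to the scaling. For miR-335-5p, whose log2 fold change was below 0 in all 18 alternatives run, the test was passed with total counts (-1.06), with limma on log2 of deposited TPM plus 1 (-0.89) or plus 10 (-0.40) and without a filter (-0.69), and leaving out 1 library gave -0.67 to -0.19, the latter without control replicate 1. For miR-335-3p it was passed with upper quartile factors (0.46) and a minimum count of 50 (0.31), and the sign turned with total counts (-0.33) and with limma on TPM plus 1 (-0.33) or plus 10 (-0.31). Leaving out 1 library gave 0.20 to 0.29, and the test was passed without RARαS77A replicate 3 (adjusted p = 0.0466). In the fit without a filter miR-335-3p was at 0.06 (edgeR, adjusted p = 0.854). miR-31-5p stayed above 0 and uncalled in all 16 alternatives without a filter (0.02 to 0.99; adjusted p 0.463 to 0.869), and leaving out 1 library gave 0.24 to 0.99. The number of miR-335 arms called higher was 1 with upper quartile factors, where 141 of 506 miRNAs were, and 1 with a minimum count of 50, where 102 of 318 were. It was 0 to 1 with 1 library left out. The number called lower was 2 with total counts and with both limma fits on TPM, where 213, 221 and 218 of 506 miRNAs were. It was 1 without a filter, where 162 of 1582 were, and 0 with any library left out.

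Of the 506 miRNAs tested with TMM, 118 were higher and 107 lower. With total counts 51 and 213 were, with limma on TPM plus 1 55 and 221, with TPM plus 10 59 and 218, and with control replicates 1 and 2 set apart 76 and 55. The counts with control replicates 1 and 2 set apart rest on control replicate 3 as the only control library. They cannot be weighed against the other counts, because the spread between control libraries does not enter that comparison. Without a filter 117 of 1582 were higher and 162 lower, and leaving out 1 library gave 101 to 125 higher and 92 to 116 lower. Suppressors called higher were 2 with total counts, 3 with either limma fit on TPM, and 4 to 5 with 1 library left out. Suppressors called lower were 1 with RLE factors and 3 with totals that omit the 5 most abundant miRNAs, where 122 and 147 of all tested miRNAs were. Total counts, both limma fits on TPM and no filter gave 4. Leaving out 1 library gave 0 to 1 (1 without control replicate 2 and without RARαS77A replicate 3). Promoters called higher were 0 with total counts and both limma fits on TPM. They were 1 with totals that omit the 5 most abundant miRNAs, where 96 of all tested miRNAs were higher, and 2 to 4 with 1 library left out. Promoters called lower were 2 with RLE factors, DESeq2, no filter and a minimum count of 50. They were 3 with total counts, totals that omit the 5 most abundant and both limma fits on TPM. With 1 library left out they were 1 to 2 (2 without control replicate 3 and without RARαS77A replicate 2). Of all tested miRNAs 111 were lower with DESeq2, and 82 of 318 were with a minimum count of 50. The causes were not tested.

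The log2 arm ratio of miR-335 kept its direction in 10 alternatives, with -0.90 to -0.42 when 1 library was left out. For miR-31 it was 0.28 against control replicate 3 alone, and -2.26 to -0.18 with 1 library left out. With control replicates 1 and 2 set apart, so against control replicate 3 alone, miR-335-5p was at -0.32 and miR-335-3p at 0.24 by edgeR. Same-numbered libraries hardly deviated together (correlations of 0.04, 0.10 and 0.02). With so few libraries this cannot tell whether the numbers pair them. With a replicate block, miR-335-5p was at -0.46 (edgeR, adjusted p = 0.205) and miR-335-3p at 0.25 (adjusted p = 0.119). In that fit 4 suppressors and 2 promoters were called higher, where 107 of 506 miRNAs were. The arm ratios of miR-335 and miR-31 with this block had exact permutation p = 0.25 and 0.75.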

Other observations

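Base composition was looked at after the values had been seen. miR-335-5p, with 69.6% A and U, had the highest value of the 3 control libraries in replicate 1, 0.74 on the log2 scale above the mean of the other two, and 15 of the 439 tested miRNAs with a RefSeq sequence were richer in A and U. Among the miRNAs most alike to it, miR-340-5p (72.7% A and U) and miR-582-5p (65.2%) were 0.42 and 0.25 higher there, whereas miR-335-3p (63.6%) was 0.03 lower. As miR-340-5p and miR-582-5p were picked for a pattern like that of miR-335-5p over these libraries, their height there follows from the choice. The 3 miRNAs most alike to miR-335-3p had between 50% and 52.4% A and U, near the median of 52.2%. miR-374a-5p, the most alike to miR-335-5p, had no RefSeq sequence and so no value here. The sequences of miR-340-5p, miR-582-5p and miR-629-5p are shown with the seed in capitals.
hsa-miR-340-5p: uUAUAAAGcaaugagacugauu
hsa-miR-582-5p: uUACAGUUguucaaccaguuacu
hsa-miR-629-5p: uGGGUUUAcguugggagaacu

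Across the 439 miRNAs, which share the same libraries and are not replicates, the share of A and U and the deviation of control replicate 1 had Pearson's r = 0.163 and Spearman's rho = 0.297, and with a mean count of at least 50 (279 miRNAs) 0.152 and 0.382. Against the log2 fold change of RARαS77A over control the values were -0.10 and -0.06 across the 439.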
